A study of Mus musculus with 19 samples.

Results

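The 10 genes described here encode transporters of the hepatocyte membranes, which move bile acids, related organic anions or, for Abcb4, the phosphatidylcholine of bile. They were picked by gene symbol from the 51826 gene entries of the table, and each was found. They fall into 3 roles by the membrane that the transporter serves and by the direction of transport. Sinusoidal uptake is represented by 5 genes, Slc10a1, Slco1a1, Slco1a4, Slco1b2 and Slco2b1. Canalicular export is represented by 3 genes, Abcb11, Abcb4 and Abcc2, and basolateral efflux by 2 genes, Abcc3 and Abcc4. RNA came from flash-frozen liver (caudate lobe, per the study's methods) of 19 female Balb/c mice that the labels give as 12 weeks of age, with 7 nulliparous mice, 6 mice at lactation day 10 and 6 mice at involution day 6, the sixth day after weaning. The labels give no engineered allele and no agent for any group, and each library was 1 animal. The mice came from Charles River Laboratories and The Jackson Laboratory, and the supplier of a given mouse is not stated in the sources used here.

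Bile acids leave the intestine in portal blood and are taken up by hepatocytes across the sinusoidal membrane, then secreted across the canalicular membrane into bile, and this recirculation returns most of the pool to the liver. Slc10a1 encodes NTCP, the sodium-dependent carrier of conjugated bile acids, and the Slco genes encode organic anion transporting polypeptides with broader substrates. Abcb11 encodes the bile salt export pump, Abcb4 the floppase that delivers phosphatidylcholine to bile, and Abcc2 the exporter of glucuronide and glutathione conjugates such as bilirubin glucuronide. Abcc3 and Abcc4 encode pumps of the basolateral membrane that return bile acids and conjugates to blood, a route known for its use in cholestasis.

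The mice carry animal numbers from 1 to 240, and the values of several of these genes fell into 2 sets by that number. The split was chosen with earlier results of these data known, so p values between the ranges are descriptive. The lower-numbered mice (under 200) were 3 nulliparous and 3 lactating animals. The higher-numbered mice (200 and above) were 4 nulliparous and 3 lactating animals and every one of the 6 involution animals. The labels name no batch, and what sets the 2 ranges apart is not given in the sources used here. The stage comparisons of the members are therefore counted for all mice and for higher-numbered mice, and a difference between involution and lower-numbered mice cannot be told apart from one between the number ranges. TPM gives the share of a gene among 1000000 transcripts after correction for gene length, and the depth of the libraries is unknown from it. The 5 hepatocyte markers, led by Alb, summed to 57076 to 92395 TPM in nulliparous mice, 97015 to 148419 TPM at lactation and 77372 to 108775 TPM at involution, as a check of the labelled tissue. These sums did not overlap between nulliparous and lactating mice, and 1 of the 5 markers rose at lactation, beside 2.72% of all genes tested. In whole liver, fewer cells of a type and less RNA per cell cannot be told apart. The Kupffer cell and leukocyte markers moved with stage over all mice: 5 of 7 fell at lactation and 7 of 7 rose from lactation to involution. Of all genes tested, 6.49% were lower at lactation and 18.1% were higher at involution than at lactation. Among higher-numbered mice alone 5 fell, against 4.47% of all genes, and 5 rose, against 10.6%. The summed levels of these markers were 114 to 216.3 TPM in nulliparous mice, 77.1 to 156 TPM at lactation and 232.45 to 312 TPM at involution. The 7 cholangiocyte markers summed to 34.4 to 48.9, 20.9 to 30.7 and 31.0 to 42.3 TPM in the same order, the 5 endothelial markers to 109 to 143, 61.1 to 113 and 147 to 163 TPM, and the 5 stellate cell and fibroblast markers to 119 to 158, 80.8 to 104 and 113 to 155 TPM. Of these 3 lists, 1, 1 and 2 markers fell at lactation and 1, 3 and 2 rose from lactation to involution, beside the same shares of all genes. Among higher-numbered mice alone these counts were the same. No marker was at 0 in every mouse, and the part of these cells in the results below was not tested.

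The 4 promoter windows shown here were chosen because Slco1a1 separated the number ranges, Slco1b2 was lower at lactation in both ranges, and Abcc2 and Abcc4 were highest in lower-numbered lactating mice. Each is the 250 bases before the RefSeq start site (GRCm38.p6), read 5′ to 3′ on the strand of the gene, and 9 of the 10 members had such a window. Capitals mark matches, on either strand, to 3 motifs: AGGTCA, the half-site of many nuclear receptors (present in 14.0% of all 32851 windows of this length), TTCNNNGAA, the STAT5 motif (7.02%), and TGACNNNGC, the core of the antioxidant response element (10.2%).
Slco1a1, chr6:141946963-141947212, - strand: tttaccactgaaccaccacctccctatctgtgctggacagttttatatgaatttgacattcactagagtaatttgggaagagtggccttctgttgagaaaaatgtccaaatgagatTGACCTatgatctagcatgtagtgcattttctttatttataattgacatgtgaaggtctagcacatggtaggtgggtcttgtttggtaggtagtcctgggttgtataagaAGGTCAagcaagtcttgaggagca
Slco1b2, chr6:141629268-141629517, + strand: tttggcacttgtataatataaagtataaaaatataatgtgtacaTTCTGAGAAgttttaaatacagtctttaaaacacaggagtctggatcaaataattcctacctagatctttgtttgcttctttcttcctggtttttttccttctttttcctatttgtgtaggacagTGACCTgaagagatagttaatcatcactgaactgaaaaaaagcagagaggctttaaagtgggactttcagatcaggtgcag
Abcc2, chr19:43782058-43782307, + strand: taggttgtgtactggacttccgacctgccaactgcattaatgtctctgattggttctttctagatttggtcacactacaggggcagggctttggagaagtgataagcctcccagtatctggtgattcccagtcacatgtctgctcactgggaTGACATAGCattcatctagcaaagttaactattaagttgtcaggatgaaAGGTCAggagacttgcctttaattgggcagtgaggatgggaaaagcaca
Abcc4, chr14:118706220-118706469, - strand: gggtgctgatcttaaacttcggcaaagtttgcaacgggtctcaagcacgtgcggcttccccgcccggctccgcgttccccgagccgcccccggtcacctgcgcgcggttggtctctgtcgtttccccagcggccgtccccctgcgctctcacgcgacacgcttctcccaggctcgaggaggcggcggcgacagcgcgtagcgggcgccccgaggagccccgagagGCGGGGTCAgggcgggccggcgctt
Slco1a1 held 2 half-sites, which began at -134 and -24 from the start site. Slco1b2 held a STAT5 match at -206 and a half-site at -81. In Abcc2, an antioxidant response element core at -98 preceded a half-site at -49, and the annotation of GENCODE release M21 starts this gene at another base. The match in Abcc4, a core on the opposite strand, began at -25. Among the windows not printed, Abcb11 held a half-site at -56 and Slc10a1 a STAT5 match at -53, whereas Slco1a4, Slco2b1 and Abcb4 held no match to these letters. The inverted repeat of the half-site spaced by 1 base, a form of the FXR site, was found in none of the 9 windows and in 0.00609% of all. These matches describe the letters of the windows and are not evidence of binding.

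Slc10a1 was the most abundant of the 10 genes, with a mean of 467 TPM over the 19 mice. It was followed by Slco1b2 at 291 TPM and Abcb11 at 261 TPM. Next came Slco1a4 at 81.6 TPM, Abcb4 at 79.9 TPM and Abcc3 at 77.7 TPM. The means of Slco2b1 and Abcc2 were 49.2 and 48.6 TPM, and the lowest were 10.9 TPM for Slco1a1 and 2.23 TPM for Abcc4. Slc10a1 exceeded Slco1b2, and Abcb11 exceeded Slco1a4, in 19 of 19 mice. Other neighbours in this order changed places between mice: Slco1b2 exceeded Abcb11 in 13 of 19, Slco1a4 exceeded Abcb4 in 9 of 19, Abcb4 exceeded Abcc3 in 12 of 19, Slco2b1 exceeded Abcc2 in 14 of 19 and Slco1a1 exceeded Abcc4 in 7 of 19. The range over mice was narrow for Slco2b1, Slc10a1 and Abcb11, with a highest value 1.40, 1.46 and 1.52 times the lowest. It was 5.09 times for Abcc4 and 742 times for Slco1a1, whose lowest value was 0.09 TPM.

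**Figure D1:**
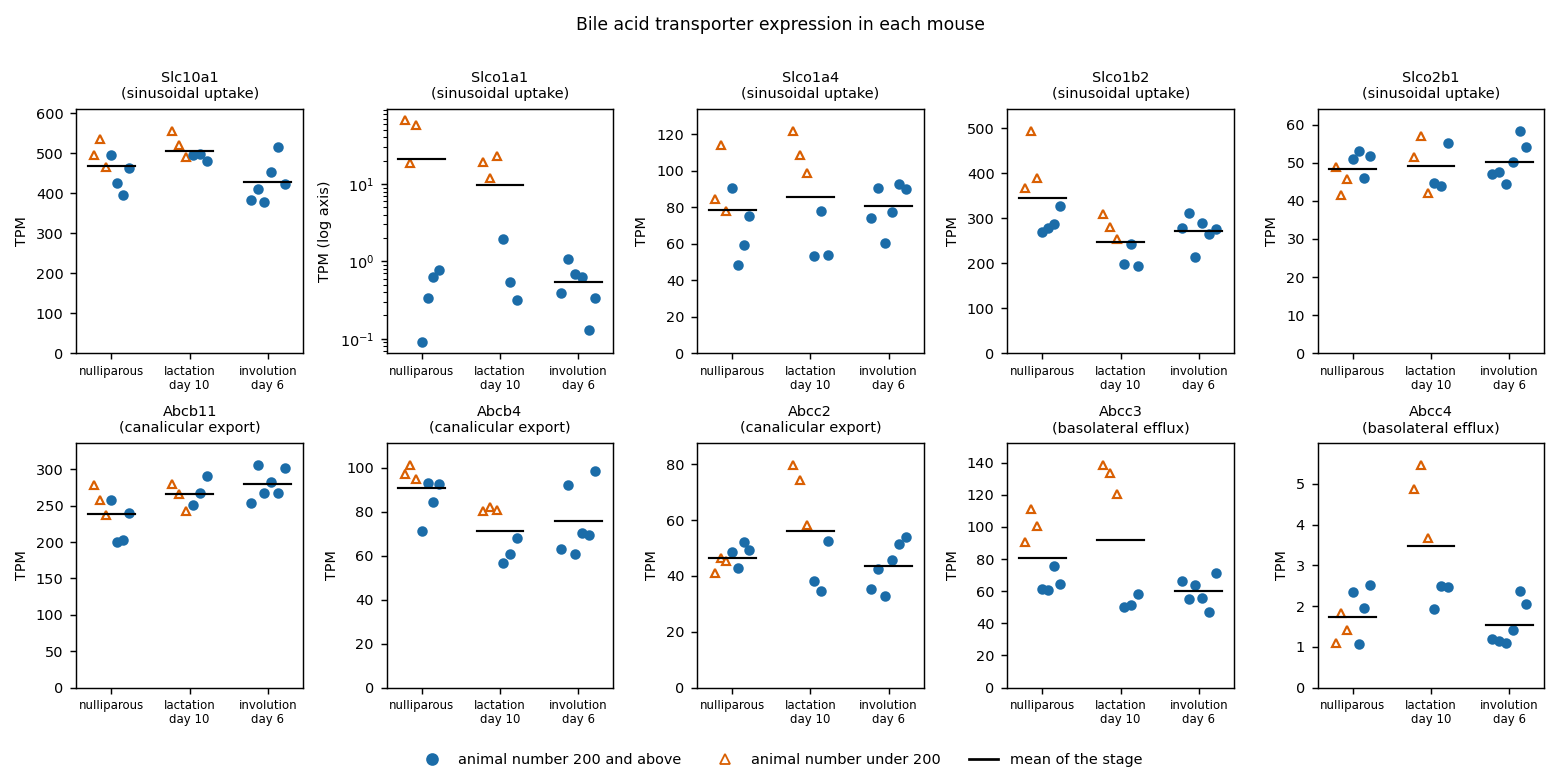
TPM of each transporter gene in each mouse, by stage, with 1 point per mouse and a bar at the mean of the stage. The axis starts at 0 except for Slco1a1, which has a log axis and on which 6 mice with animal numbers under 200 sit between 11.9 and 66.8 TPM and the other 13 between 0.09 and 1.94 TPM.

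Between nulliparous and lactating mice, 1 of the 10 genes rose and 1 fell among all mice. Abcc4 rose and Slco1b2 fell, against 9.21% of the 16230 genes tested that were called in this comparison (2.72% higher and 6.49% lower). Called means an adjusted p under 0.05 by limma with Benjamini-Hochberg adjustment over all genes tested, on the log2(TPM + 1) scale, which understates changes at low TPM. From lactation to involution, Slc10a1 and Abcc4 fell, against 22.8% of genes called (18.1% higher and 4.73% lower). Between involution and nulliparous mice, limma called 0 of the 10 members, with 3 at an unadjusted p under 0.05 (Slco1b2, Abcb11 and Abcb4), against 4.36% of genes called and 25.1% at an unadjusted p under 0.05. On the log2(TPM + 1) scale, none of the members called in the 3 comparisons reached a log2 fold change of 1 in size. That threshold was met by 0.746%, 1.93% and 0.253% of genes. In mean TPM, Abcc4 at lactation was 2.26 times its level at involution. Among higher-numbered mice alone, Slco1b2 was the 1 member called at lactation (lower, against 7.07% of genes called and 4.47% lower) and the 1 called from lactation to involution (higher, against 14.1% called and 10.6% higher). Between higher-numbered involution and nulliparous mice limma called 0 members, against 0.819% of genes, with 1 (Abcb11) at an unadjusted p under 0.05, against 12.2%. The median log2 fold change of the 10 members was 0.09, -0.14 and -0.12 in the 3 comparisons, beside -0.03, 0.10 and 0.07 over all genes tested. The stages overlapped for each member in all 3 comparisons, which share groups with each other, while 3.27%, 11.5% and 2.38% of genes did not overlap.

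**Figure D2:**
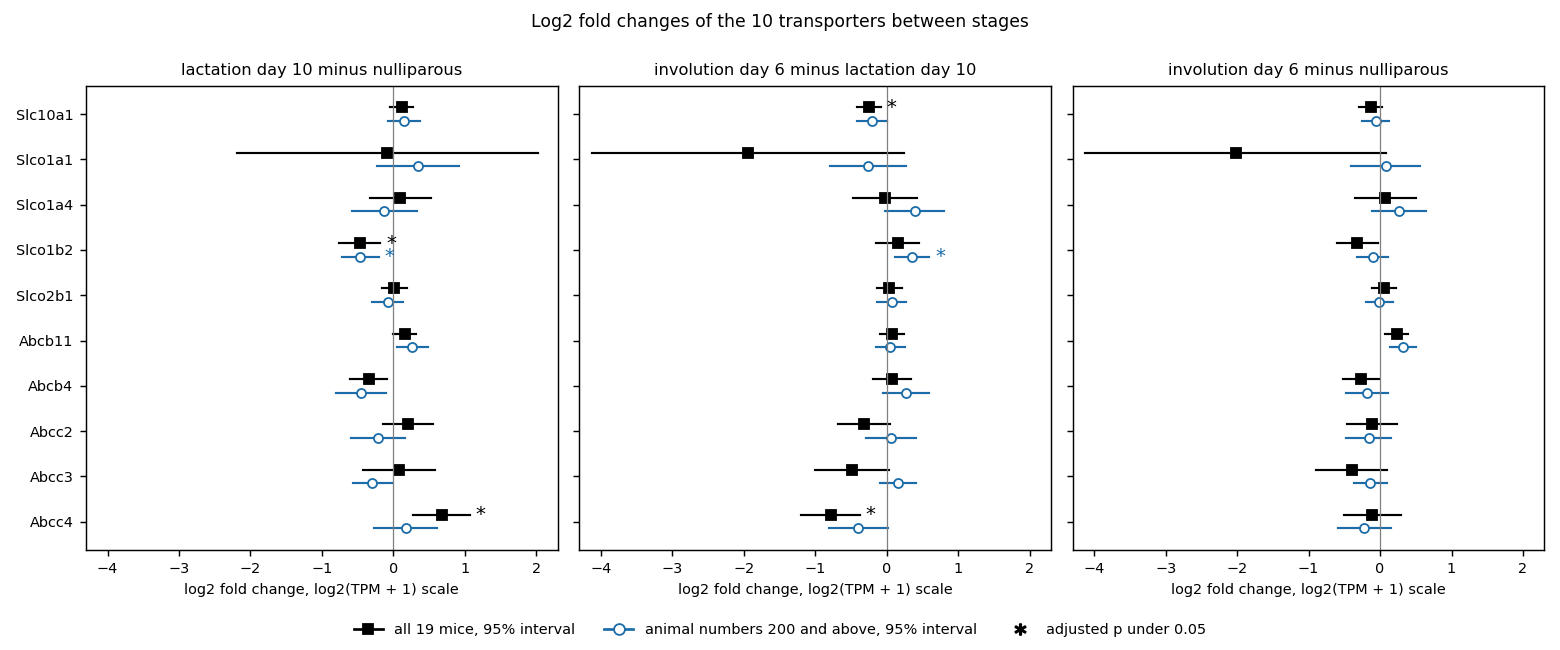
Log2 fold change of each member on the log2(TPM + 1) scale in the 3 comparisons between stages, with the 95% interval of limma, for all 19 mice (squares) and for mice numbered 200 and above (circles). Asterisks mark an adjusted p under 0.05, which Slco1b2 and Abcc4 have at lactation and Slc10a1 and Abcc4 have from lactation to involution over all mice.

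Among the uptake genes, Slco1b2, the murine counterpart of the human liver OATP1B carriers of bile acids and bilirubin, was lower at lactation in both number ranges. It was at 368, 389 and 494 TPM in the lower-numbered nulliparous mice and at 254, 282 and 310 TPM in the lower-numbered lactating mice. In higher-numbered mice it was at 271, 279, 288 and 329 TPM before and at 194.7, 198 and 244 TPM at lactation. Neither pair of groups overlapped, as was so for 29.4% of all genes in lower-numbered and 19.8% in higher-numbered mice. Lower-numbered lactating mice did overlap higher-numbered nulliparous ones. The log2 fold change was -0.47 ± 0.14 (SE, adjusted p = 0.0377) over all mice, -0.56 ± 0.13 (adjusted p = 0.0214) in lower-numbered mice and -0.46 ± 0.12 (adjusted p = 0.0389) in higher-numbered mice. The mean over all mice was 28.4% lower at lactation. Leaving out 1 mouse at a time ended the call over all mice for 8 of the 19 mice (the 3 lower-numbered nulliparous mice, the higher-numbered nulliparous mouse at 329 TPM, the 3 higher-numbered lactating mice and the lower-numbered one at 254 TPM), although the log2 fold change kept its sign. The call was also lost after median-ratio scaling of the mice (-0.42, adjusted p = 0.106). At involution Slco1b2 was at 215, 278 and 311 TPM (lowest, median and highest). Within higher-numbered mice this was a rise from lactation of 0.36 ± 0.11 (adjusted p = 0.0458) and a difference from nulliparous mice of -0.10 with a 95% interval from -0.32 to 0.12. Over all mice the difference from lactation was 0.15 (adjusted p = 0.471) and turned to -0.0088 after median-ratio scaling.

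Slc10a1 was at 395, 465 and 535 TPM (lowest, median and highest) in nulliparous mice, at 482, 496 and 555 TPM at lactation and at 379.6, 418 and 515 TPM at involution. In 5 of 6 involution mice it was below the lowest lactating mouse. The fall from lactation to involution was -0.25 ± 0.08 (SE, adjusted p = 0.0299), with means of 507 ± 27.1 TPM (SD, n = 6) and 428 ± 50.7 TPM (SD, n = 6). Among higher-numbered mice the difference was -0.21 (95% interval -0.42 to 0.00081) and was not called (adjusted p = 0.181), nor was it with number range as a covariate (-0.19, adjusted p = 0.130). The call over all mice was also lost without either of the 2 highest lactating mice (522 and 555 TPM) or without any 1 of the 4 lowest involution mice (379.6 to 424 TPM). After median-ratio scaling, which shifted the median of all genes in this comparison by -0.10, the fall was -0.41 (adjusted p = 0.00367). Against nulliparous mice, lactation differed by 0.12 (95% interval -0.04 to 0.28) and involution by -0.13 (95% interval -0.29 to 0.03).

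Slco1a1, an uptake carrier known to be higher in male than in female mouse liver, differed by number range far more than by stage. In lower-numbered nulliparous mice it was at 18.5, 58.4 and 66.8 TPM. Higher-numbered nulliparous mice had 0.09, 0.34, 0.63 and 0.77 TPM, a mean 105-fold lower. At lactation it was at 11.9, 19.5 and 23.3 TPM in lower-numbered mice and at 0.32, 0.54 and 1.94 TPM in higher-numbered mice, a mean 19.5-fold lower. The 6 involution mice, all higher-numbered, had 0.13 to 1.07 TPM. The difference between ranges was 4.90 ± 0.42 on the log2 scale in nulliparous mice (SE, adjusted p = 2.03e-05) and 3.36 ± 0.44 at lactation (adjusted p = 5.59e-04). Within higher-numbered mice the 3 stages overlapped, with log2 differences of 0.34 (95% interval -0.23 to 0.92), -0.26 (-0.80 to 0.27) and 0.08 (-0.41 to 0.56). Within lower-numbered mice the lactating mean was 18.2 ± 5.76 TPM (SD, n = 3) against 47.9 ± 25.8 TPM (SD, n = 3), a log2 difference of -1.20 that was not called (adjusted p = 0.113). Of the 75-base stretches of its transcripts, 1.08% are shared with other genes, Slco1a4 among them.

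Slco1a4, a close relative encoded near Slco1a1 on chromosome 6, showed the same order of number ranges at lactation, with 99.0, 108 and 122 TPM in lower-numbered mice and 53.3, 54.0 and 78.2 TPM in higher-numbered mice. That difference was 0.84 ± 0.22 (SE, adjusted p = 0.0340). In nulliparous mice the ranges overlapped, with 78.2, 84.4 and 114 TPM against 48.2, 59.2, 75.3 and 90.5 TPM (0.45 ± 0.21, adjusted p = 0.152). Slco2b1, a carrier of sulfated steroids and statins among other anions, lay between 41.6 and 58.2 TPM in the 19 mice. Its stage differences were 0.02, 0.04 and 0.05 over all mice, and each 95% interval lay between -0.16 and 0.23. Of its 75-base stretches, 4.75% are shared with 2 other genes, so that part of its reads could be divided between them. The study's reads were pairs longer than these stretches, and the share of reads that match several genes was not measured.

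Among the canalicular genes, Abcb11 was at 200.5, 240.2 and 279 TPM (lowest, median and highest) in nulliparous mice, at 243, 266 and 291 TPM at lactation and at 254, 275 and 305 TPM at involution. Of the 7 nulliparous mice, 4 were below the lowest lactating mouse. The increments of 0.16 at lactation (95% interval -0.00087 to 0.32, adjusted p = 0.219) and of 0.23 at involution against nulliparous mice (95% interval 0.07 to 0.39, adjusted p = 0.0852) were not called. The involution difference was 0.12 (adjusted p = 0.409) after median-ratio scaling, and 0.32 ± 0.08 (SE, adjusted p = 0.112) among higher-numbered mice. The mean of Abcb11 at involution was above its nulliparous mean and that of Slc10a1 was below, although single mice did not all follow, and the ratio of Slc10a1 to Abcb11 within a mouse, which does not depend on how mice are scaled and was chosen after the values were seen, is given as a description. It was 1.77 to 2.13 in nulliparous mice, 1.65 to 2.02 at lactation and 1.35 to 1.92 at involution, where 5 of 6 mice were below the lowest lactating mouse.

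Abcb4 was at 94.9, 97.3 and 101 TPM in lower-numbered nulliparous mice and at 80.2, 80.8 and 82.0 TPM in lower-numbered lactating mice. In higher-numbered mice it was at 71.1, 84.7, 92.7 and 93.0 TPM before and at 56.5, 60.9 and 68.3 TPM at lactation. The stages did not overlap within either range, as was so for 29.4% of all genes in lower-numbered and 19.8% in higher-numbered mice. Over all mice the log2 difference was -0.35 ± 0.12 (SE, adjusted p = 0.0802). In the fit of stage and range over the 13 nulliparous and lactating mice it was -0.45 ± 0.09 in higher-numbered mice (adjusted p = 0.0138), whereas the same difference had an adjusted p of 0.119 when higher-numbered involution mice shared the fit. It was -0.27 ± 0.10 in lower-numbered mice (adjusted p = 0.111). At involution Abcb4 ranged from 61.0 to 98.6 TPM and overlapped both other stages.

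Abcc2 lay between 41.0 and 52.2 TPM in all 7 nulliparous mice, so that the ranges overlapped there. At lactation the lower-numbered mice had 58.2, 74.2 and 79.6 TPM and the higher-numbered mice 34.7, 38.2 and 52.4 TPM. Abcc2 rose by 0.65 ± 0.15 in lower-numbered mice (SE, adjusted p = 0.0209), and in higher-numbered mice the difference was -0.22 ± 0.14 (adjusted p = 0.398). The difference between these changes was 0.87 ± 0.20 with an adjusted p of 0.153. At involution it was at 32.6 to 53.9 TPM, and the fall from lactation was called only after median-ratio scaling among the scalings tried (-0.48, adjusted p = 0.0492).

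Of the basolateral pumps, Abcc4, the less abundant, had 1.09, 1.41 and 1.82 TPM in lower-numbered nulliparous mice and 3.68, 4.88 and 5.45 TPM in lower-numbered lactating mice. In higher-numbered mice it had 1.07, 1.95, 2.34 and 2.52 TPM before and 1.93, 2.46 and 2.50 TPM at lactation. The lower-numbered lactating mice were above all other mice. Over all mice Abcc4 rose by 0.68 ± 0.19 at lactation (SE, adjusted p = 0.0297) and fell by 0.78 from lactation to involution (SE 0.20, adjusted p = 0.00733), where it had 1.09 to 2.37 TPM. The rise was 1.21 ± 0.20 in lower-numbered mice (adjusted p = 0.00488) and 0.17 in higher-numbered mice (95% interval -0.23 to 0.58, adjusted p = 0.648). Between higher-numbered lactating and involution mice the difference was -0.40 (95% interval -0.81 to 0.01, adjusted p = 0.195). Over all mice the lactation call was lost without any 1 of the 3 lowest nulliparous mice (1.07, 1.09 and 1.41 TPM) or of the 3 lower-numbered lactating mice, and the involution call was kept without any 1 of the 19 mice. Without the 1 added before the log2, the mean TPM at lactation was 2.00 times the nulliparous and 2.26 times the involution mean.

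Abcc3 was at 90.4, 100.5 and 112 TPM in lower-numbered nulliparous mice and at 120.4, 133.4 and 138 TPM in lower-numbered lactating mice. Its values in higher-numbered mice were 60.8, 61.5, 64.6 and 75.8 TPM before and 50.4, 51.2 and 58.4 TPM at lactation. Every lactating mouse was thus above the nulliparous mice of its range among lower numbers and below them among higher numbers. In either direction, the 2 stages were apart for 29.4% of all genes in lower-numbered and 19.8% in higher-numbered mice. The lactation change was 0.37 ± 0.10 in lower-numbered mice (SE, adjusted p = 0.0440) and -0.29 ± 0.10 in higher-numbered mice (adjusted p = 0.0946). The difference between the 2 changes was 0.67 ± 0.14, with an adjusted p of 0.121. Between the ranges, Abcc3 was higher in lower-numbered mice by 0.61 ± 0.10 in nulliparous mice (adjusted p = 0.00137) and by 1.28 ± 0.10 at lactation (adjusted p = 1.54e-05). The 6 involution mice had 47.2 to 71.6 TPM, and over all mice the stage differences of 0.08, -0.48 and -0.40 were not called.

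**Figure D3:**
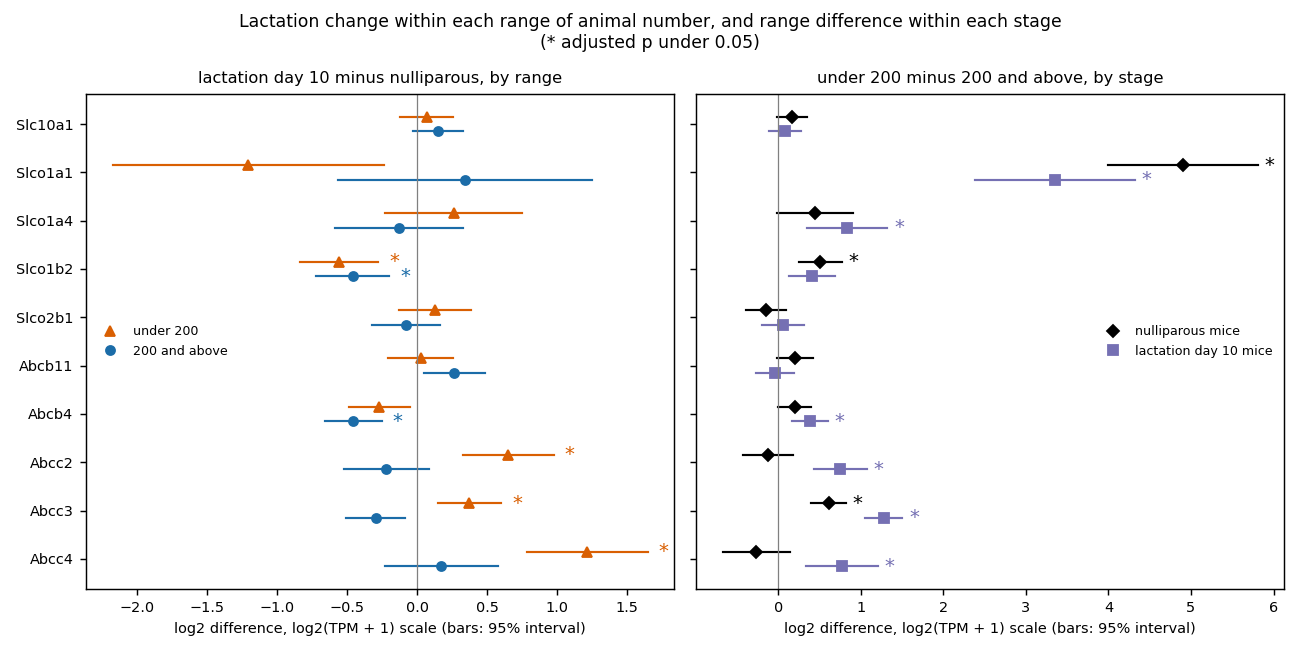
Left, log2 difference between lactating and nulliparous mice within each range of animal number; right, log2 difference between mice numbered under 200 and mice numbered 200 and above within each stage, with the 95% interval of limma over 13 mice and asterisks at an adjusted p under 0.05. Slco1b2 is below 0 in both ranges on the left, and Slco1a1 lies at 4.90 and 3.36 on the right.

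Counted over the 10 genes, the lactation change within lower-numbered mice was called for 4 (Abcc2, Abcc3 and Abcc4 rose and Slco1b2 fell), against 9.04% of all genes called and 4.22% called higher. Within higher-numbered mice it was called for 2 (Slco1b2 and Abcb4 fell), against 7.06% called and 4.58% called lower. Both counts are from the fit of stage and range. When higher-numbered involution mice shared the fit instead, Slco1b2 alone was called by limma (Abcb4 had an adjusted p of 0.119). The 2 stages did not overlap for 5 of 10 members in lower-numbered mice and for 3 of 10 in higher-numbered mice, where 29.4% and 19.8% of all genes did not overlap. The difference between these changes was itself called for 0 of the 10 by limma, with 4 at an unadjusted p under 0.05 (Slco1a1, Abcc2, Abcc3 and Abcc4), against 0.111% of all genes called and 13.3% at an unadjusted p under 0.05. The lactation changes of the 2 ranges were therefore not shown to differ for any member. Between the ranges, 3 members were called in nulliparous mice (Slco1a1, Slco1b2 and Abcc3), against 20.6% of genes, and each was higher in lower-numbered mice, against 6.36% of genes. At lactation 6 members were called (Slco1a1, Slco1a4, Abcb4, Abcc2, Abcc3 and Abcc4), against 10.6% of genes, and all 6 were higher in lower-numbered mice, against 5.19%. The ranges did not overlap for 4 of 10 members in nulliparous mice and for 7 of 10 at lactation, where 31.9% and 29.2% of all genes did not overlap. Slc10a1, Slco2b1 and Abcb11 were called between the ranges in neither stage, with log2 differences from -0.15 to 0.20. In the same mice the Kupffer cell and leukocyte markers summed to 114 to 148 TPM in lower-numbered and 184 to 216.3 TPM in higher-numbered nulliparous mice, and to 77.1 to 105 and 114 to 156 TPM at lactation. The sum of the hepatocyte markers, led by Alb, also separated the ranges, with 57076 to 67619 against 71898 to 92395 TPM in nulliparous mice and 97015 to 107599 against 127561 to 148419 TPM at lactation. The single markers did not all follow. Alb, Ttr, Apoa1 and Serpina1c were lower in lower-numbered mice, and limma called Ttr at both stages and Serpina1c at lactation. Tat was higher in them, by 0.48 in nulliparous mice (adjusted p = 0.130) and by 0.82 at lactation (adjusted p = 0.0383). The sums of the endothelial markers separated the ranges in nulliparous mice (109 to 127 against 130.2 to 143 TPM) and those of the stellate cell and fibroblast markers at lactation (90.8 to 104 against 80.8 to 86.0 TPM). The cholangiocyte markers overlapped between ranges at both stages. The part of these cells in the range differences was not tested.

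Summed by role, the uptake genes held most of the members' TPM at every stage. Their sum was 961 ± 149 TPM (SD, n = 7) in nulliparous mice, 898 ± 107 TPM (SD, n = 6) at lactation and 832 ± 80.1 TPM (SD, n = 6) at involution. The canalicular genes summed to 376 ± 30.5, 394 ± 36.3 and 399 ± 41.2 TPM and the basolateral genes to 82.5 ± 20.2, 95.5 ± 44.2 and 61.5 ± 8.72 TPM in the same order. As shares of the members' TPM, uptake took 67.5%, 64.8% and 64.3%, canalicular export 26.7%, 28.5% and 30.9%, and basolateral efflux 5.76%, 6.66% and 4.80%. The sums of the stages overlapped in each role. Among higher-numbered mice alone the uptake sums averaged 856, 815 and 832 TPM in the same order of stages. Their canalicular sums averaged 359, 373 and 399 TPM and their basolateral sums 67.7, 55.6 and 61.5 TPM. In these mice neither the uptake nor the basolateral mean was lower at involution than at lactation. Within lactation the basolateral share was 8.74% to 9.01% in lower-numbered mice and 4.19% to 4.83% in higher-numbered mice, a spread that came mostly from Abcc3, the more abundant of the pair.

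**Figure D4:**
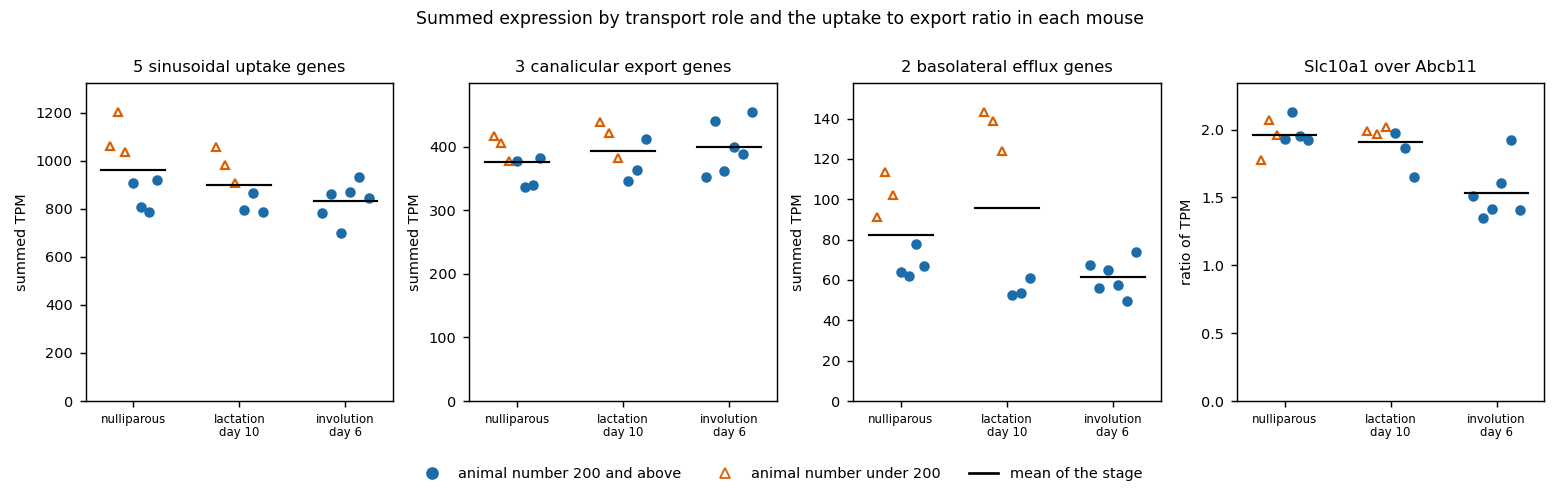
Summed TPM of the 5 uptake, 3 canalicular and 2 basolateral genes, and the ratio of Slc10a1 to Abcb11, in each mouse by stage, with bars at the mean of the stage and all axes starting at 0. The 3 lower-numbered lactating mice have basolateral sums of 124 to 143 TPM against 52.3 to 60.9 TPM in the higher-numbered ones, and the ratio averages 1.96, 1.91 and 1.53 in the 3 stages.

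Other transporters of the hepatocyte and bile duct were taken from a list of 20 genes, of which 15 passed the filter on low values. Over all mice 2 rose and 1 fell at lactation (9.21% of all genes were called), 4 rose and 1 fell from lactation to involution (22.8%), and 4 rose at involution against nulliparous mice (4.36%). Among higher-numbered mice the counts were 1 and 2, 4 and 1, and 1 and 0, beside 7.07%, 14.1% and 0.819% of all genes called. The 1 gene that was higher at involution than in nulliparous mice there was Abcg5, by 0.74 ± 0.13 (SE, adjusted p = 0.0234). Slco2a1, the prostaglandin carrier of the same family as the uptake genes, rose at lactation from 8.75 ± 1.64 TPM (SD, n = 7) to 22.8 ± 5.94 TPM (SD, n = 6), a log2 fold change of 1.27 ± 0.16 (SE, adjusted p = 1.15e-04). Its rise was 1.23 in lower-numbered and 1.33 in higher-numbered mice, and it fell by 0.75 to involution (adjusted p = 0.00349). Abcg5 and Abcg8, the partners that form the canalicular sterol exporter, rose from lactation to involution by 0.94 ± 0.12 (adjusted p = 3.13e-05) and 0.99 ± 0.13 (adjusted p = 3.80e-05). Abcg5 was at 41.8 to 46.0 TPM at lactation and 68.2 to 107 TPM at involution. Slc51b, the beta subunit of the basolateral bile acid carrier OST, rose from lactation to involution from 2.16 to 4.21 TPM (adjusted p = 7.43e-04), while its partner Slc51a did not exceed 0.01 TPM in any mouse. Slc27a5, the bile acid-CoA ligase that also takes up fatty acids, was higher at involution than in all nulliparous mice by 0.58 ± 0.15 (adjusted p = 0.0399). It differed by number range in nulliparous mice, with 489 TPM in lower-numbered against 687 TPM in higher-numbered mice (-0.50, adjusted p = 0.0189), and between involution and higher-numbered nulliparous mice the difference was 0.36 and was not called (adjusted p = 0.176).

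Of 20 regulators of these transporters, 2 fell at lactation, 5 rose and 1 fell from lactation to involution, and limma called 0 between involution and nulliparous mice. Over all genes 9.21% were called at lactation (6.49% lower), 22.8% from lactation to involution (18.1% higher) and 4.36% between involution and nulliparous mice. Among higher-numbered mice 2 fell, then 4 rose and 1 fell, and 0 were called, beside 7.07%, 14.1% and 0.819% of all genes called. Stat5a and Stat5b, the transcription factors downstream of prolactin and growth hormone receptors, fell at lactation by 0.55 (adjusted p = 0.00208) and 0.43 (adjusted p = 0.00506). They rose from lactation to involution by 0.53 ± 0.11 (adjusted p = 0.00141) and 0.55 ± 0.09 (adjusted p = 3.52e-04). Nr1h4, which encodes the bile acid receptor FXR, was not called in any of the 3 comparisons, with means of 47.5, 49.0 and 42.7 TPM, and was named after its values were seen. Nr1i3, the xenobiotic receptor CAR, was likewise named after its values were seen, because it differed by number range: it averaged 159 and 95.3 TPM in lower- and higher-numbered nulliparous mice (log2 difference 0.73, adjusted p = 0.0011) and 148 and 65.9 TPM at lactation (1.15, adjusted p = 9.07e-05). Of 12 genes for trafficking and membrane anchoring of the transporters, 1 fell at lactation, 3 rose and 1 fell from lactation to involution, and none was called between involution and nulliparous mice by limma, beside the same shares of all genes. Among higher-numbered mice 3 rose from lactation to involution, against 10.6% of all genes, and no other call was made.

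The genes whose pattern over the 19 mice was most like that of the most abundant member of each role were found by Pearson correlation of log2(TPM + 1) among the 11605 genes whose mean reached 1 TPM, and are given as a description. For Slc10a1 they were Prdx3 (r = 0.866), Lactb2, Pomt1, Idh1 and Echdc1 (r = 0.859). For Abcb11 they were Enpp1 (r = 0.754), Samm50, Rnmt, Adssl1 and Rab20 (r = 0.683). For Abcc3 they were Ugt3a2 (r = 0.941), Acaa1a, Slc1a2, Zhx2 and Slc16a7 (r = 0.929), and these points share the 2 number ranges. Zhx2, a transcriptional repressor known from strain differences in mouse liver gene expression, was at 2.36 to 2.79 TPM in lower-numbered nulliparous mice, 3.14 to 3.73 TPM in lower-numbered lactating mice and 0.06 to 0.27 TPM in the 13 higher-numbered mice. Ugt3a2 followed the same division, with a mean of 215 against 114 TPM in nulliparous mice and 263 against 92.3 TPM at lactation.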

How the data were processed

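Liver RNA of 19 mice (7 nulliparous, 6 at lactation day 10, 6 at involution day 6) was enriched for poly(A), sequenced as paired-end reads and aligned to GRCm38. The authors quantified genes with RSEM 1.3.1 on the Ensembl annotation and deposited 1 TPM value per gene and mouse, and the aligner is not given in the sources used here. RSEM divides reads that match several genes, so shares of 75-base stretches common to other genes were computed from GENCODE M21 transcripts. The stretches are shorter than the study's reads, so these are not shares of ambiguous reads. TPM keeps no depth, the precision is known only from the spread between mice, and the authors' DESeq2 test on counts was not repeated.

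From TPM, log2(TPM + 1) was tested with limma-trend (limma 3.58.1, R 4.3.3) over the 16230 genes whose mean reached 0.1 TPM, with 1 mean per stage, all 19 mice and Benjamini-Hochberg adjustment. Another fit took the 13 mice numbered 200 and above, and a further fit took stage and number range with their interaction over the 13 nulliparous and lactating mice. Members, lists, number ranges and the rule for named genes were chosen with earlier results of these data known. By that rule all members were named, with called list genes that changed by 0.5 or more (log2) in any comparison, and the 5 genes most correlated with the most abundant member of each role. Genome windows are from RefSeq. Alternatives were other pseudocounts, filters, scalings, sets of mice and covariates, the study's fold threshold, exact permutation tests of mean TPM, and leaving out each mouse. Tables were made with Python 3.11.15, numpy 2.4.6 and pandas 2.3.3.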

Additional observations from a re-analysis of the deposited data

Results flagged for a closer look

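Abcc3 was singled out because every lactating mouse lay outside the nulliparous mice of its own number range. The 3 lower-numbered lactating mice lay above them and the 3 higher-numbered ones below. The 2 stages did not overlap for 29.4% of all genes in lower-numbered mice and 19.8% in higher-numbered mice. The share of genes with opposite directions in the 2 ranges was not counted. The difference between the 2 lactation changes was 0.67 ± 0.14 (SE) on the log2 scale, with an unadjusted p of 5.07e-04 and a Benjamini-Hochberg adjusted p of 0.121 by limma over all genes tested, so it failed the correction. No value stood apart from its stage in the 39 groups of 6 or 7 mice examined with Dixon's criterion, which chance meets in about 1 of 20 groups. Each group was 1 gene or role sum over all mice of 1 stage, so the number ranges were not examined apart.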

How the results depend on the processing

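The count of 2 members called at lactation became 0 with no filter on low values, 0 with only the 2 stages compared in the fit, 1 after median-ratio scaling, 1 with only animal numbers of 200 and above and 0 with a log2 fold change of at least 1 also required. The count of 2 from lactation to involution became 1 with only animal numbers of 200 and above, 0 with the fold change required and 3 after median-ratio scaling, where Abcc2 was gained at -0.48 (adjusted p = 0.0492). Leaving out 1 mouse at a time gave 0 to 3 members at lactation, 1 to 2 from lactation to involution and 0 to 0 for involution against nulliparous mice, and the difference of the lactation change between ranges stayed at 0 members. The cause of these moves was not tested, and the fits on part of the mice also held fewer mice. No paired analysis was possible because the stages share no animal number.

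The 900 recomputed stage differences of members were log2 fold changes, apart from differences of mean TPM judged by exact permutation tests. Those tests were held to an unadjusted p under 0.05, whereas the log2 fold changes were held to the adjusted p. Of the 900, 802 kept their direction and side of the threshold, 55 reversed, 32 lost and 11 gained a call. None of the 4 called values reversed. Median-ratio scaling shifted the median of all genes by 0.03, -0.10 and -0.07. From lactation to involution it turned Slco1b2 to -0.0088, Slco2b1 to -0.12, Abcb11 to -0.091 and Abcb4 to -0.085, and for involution against nulliparous mice Slco1a4 to -0.034 and Slco2b1 to -0.051. Quantile normalization turned Slco2b1 to -0.051 and -0.00664 in these comparisons. Pseudocounts of 0.1 and 0.5 turned Slco1a1 at lactation to 0.22 and 0.020. With animal number range as a covariate, Slco1a1 became 0.15 and Slco1a4 0.29 from lactation to involution, and Abcc2 became 0.012 at involution against nulliparous mice. With only animal numbers of 200 and above, the lactation values became 0.34 for Slco1a1, -0.13 for Slco1a4, -0.078 for Slco2b1, -0.22 for Abcc2 and -0.29 for Abcc3, those from lactation to involution 0.39 for Slco1a4, 0.057 for Abcc2 and 0.16 for Abcc3, and those of involution against nulliparous mice 0.077 for Slco1a1 and -0.010 for Slco2b1. As differences of mean TPM in these mice, the same were 0.476, -6.50, -2.53, -6.40 and -12.4 TPM, then 19.1, 1.76 and 6.63 TPM, then 0.0825 and -0.218 TPM. Leaving out 1 mouse at a time gave ranges across 0 at lactation of -0.50 to 0.50 for Slco1a1, -0.014 to 0.22 for Slco1a4, -0.029 to 0.057 for Slco2b1 and -0.060 to 0.23 for Abcc3, from lactation to involution of -0.15 to 0.087 for Slco1a4, -0.0037 to 0.083 for Slco2b1 and -0.00363 to 0.13 for Abcb4, for involution against nulliparous mice of -0.035 to 0.17 for Slco1a4, and for the range difference of Slco1b2 of -0.18 to 0.029.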
